A study of Mus musculus with 7 samples.

Results

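Immediate early genes were examined in the lens epithelium of mice that lack SPARC, a matricellular glycoprotein that binds the collagen IV of the lens capsule. The 10 members were Egr1, Nr4a1, Klf4, Fos, Fosb, Jun, Junb, Atf3, Ier2 and Dusp1. They were taken as all probe sets whose single platform gene symbol was a member, which gave 12 of 45037 probe sets and 10 of 18193 genes with such a probe set. A member had 1 probe set in 8 cases and 2 in the cases of Klf4 and Jun, where the brighter by mean level over the lenses is described first. The set was chosen by the difference between genotypes on these same arrays, where Egr1, Nr4a1 and Klf4 had been seen higher in knock-out lenses, and was filled up with genes of the same early response. Every difference between the genotypes below is therefore a description.

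The groups were 4 lenses of 3 SPARC-null (KO) mice and 3 lenses of 3 wild-type (WT) mice, all on a C57Bl/6 background, 28 days old, untreated and from 1 litter. The KO lenses were 1L, 1R, 4L and 7L and the WT lenses 2L, 5L and 6L, with the number of the animal followed by the left or right eye. KO animal 7 was male and the other animals were female. The epithelium was dissected out of cryosections under a laser capture microscope, and each lens had its own Affymetrix array after 2 rounds of RNA amplification. The animal was the replicate. Values of 1L and 1R were averaged, which left 3 animals per group. Which part of Sparc is deleted is not stated in the labels.

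The brightest Sparc probe set had signals of 8.14 to 70.5 in KO against 27371 to 49972 in WT lenses, with all KO lenses far below all WT lenses. All arrays had a trimmed mean signal of 500.003 or 500.004, so they shared a scale, and their number limits the precision. As a gauge of background, the highest signal of 27 probe sets for bacterial genes, 45.5, is called the control level below. The Gapdh 3'/5' signal ratio, which is higher where RNA is less intact, was 15.9 in 1R and 6L, 3.75 in 2L and 9.06 to 12.7 in the others. Lens epithelium markers other than Foxe3, among them Pax6, Cdh1 and Prox1, lay above the control level in all 7 lenses, while Foxe3 was at or below it in 3 of 4 KO lenses and 1 of 3 WT lenses. Markers of neighbouring tissue were present in both groups. The summed signal of 8 retinal genes was 54737 to 78668 in KO against 42316 to 73731 in WT lenses.

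Immediate early genes are transcribed within minutes of a stimulus from factors already present in the cell. Kinases of the MAP kinase and cyclic AMP pathways act on the serum response factor with its ELK partners, which bind CArG boxes, and on CREB, which binds the cyclic AMP response element (CRE) or its half-site. Most of the products are transcription factors that drive a second wave of genes, and Dusp1, which is no transcription factor, removes phosphate from the MAP kinases and so ends the response. FOS and JUN proteins pair to form AP-1, EGR1 and KLF4 bind GC-rich DNA through zinc fingers, and NR4A1 is an orphan nuclear receptor. In the eye Klf4 is known for its role in the surface epithelium and lens, and Fos and Jun for their response to growth factors in lens epithelial cells.

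RefSeq promoters of build GRCm38.p6 were matched for 8 of the 10 members, all but Egr1 and Ier2. The 250 bases before the start of 4 of them are printed, since Nr4a1 and Klf4 lay higher in KO and Fos and Dusp1 followed another order over the lenses. Capitals mark CRE half-sites (TGACG), the full CRE (TGACGTCA, which holds a half-site on each strand) and EGR sites (GCGNGGGCG), each searched on both strands.
Nr4a1, chr15:101266596-101266845, plus strand: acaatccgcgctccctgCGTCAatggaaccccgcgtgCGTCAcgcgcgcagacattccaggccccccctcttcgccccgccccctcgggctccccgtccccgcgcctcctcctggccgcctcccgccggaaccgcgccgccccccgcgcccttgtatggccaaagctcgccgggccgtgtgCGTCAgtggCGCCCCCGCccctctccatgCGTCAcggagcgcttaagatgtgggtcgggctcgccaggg
Klf4, chr4:55532476-55532725, minus strand: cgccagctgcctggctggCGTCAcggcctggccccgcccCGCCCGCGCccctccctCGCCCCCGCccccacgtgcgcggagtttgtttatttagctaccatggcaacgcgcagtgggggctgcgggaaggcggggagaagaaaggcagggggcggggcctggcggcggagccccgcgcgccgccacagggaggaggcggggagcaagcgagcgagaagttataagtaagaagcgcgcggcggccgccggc
Fos, chr12:85473640-85473889, plus strand: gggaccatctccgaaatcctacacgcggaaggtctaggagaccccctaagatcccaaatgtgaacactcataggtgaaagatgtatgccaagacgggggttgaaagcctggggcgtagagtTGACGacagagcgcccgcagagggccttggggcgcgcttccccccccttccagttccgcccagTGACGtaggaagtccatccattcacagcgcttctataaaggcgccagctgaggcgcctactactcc
Dusp1, chr17:26508473-26508722, minus strand: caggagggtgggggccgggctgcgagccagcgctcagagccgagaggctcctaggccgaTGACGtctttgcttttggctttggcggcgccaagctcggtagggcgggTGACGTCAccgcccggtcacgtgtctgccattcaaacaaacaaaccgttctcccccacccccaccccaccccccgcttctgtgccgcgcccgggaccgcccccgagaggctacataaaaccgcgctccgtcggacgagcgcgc

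A CRE half-site was found in 7 of the 8 members, all but Jun, and in 17.8% of 32851 RefSeq promoters cut to the same 250 bases. The members' windows were GC-rich (58.4% to 74.4%, against a median of 52.4% over all), and 26.7% of the 10574 windows at least as GC-rich as the lowest of them held a half-site. Nr4a1 had 4 half-sites, Dusp1 had 3, of which 2 are the overlapping strands of its CRE, and Fos had 2, at 129 and 66 bases before the start. An EGR site was found in Nr4a1, Klf4 and Fosb, 3 of the 8, and in 4.70% of all windows. The fixed letters of this site are all G or C, and the windows of these 3 were 68.8% to 74.4% GC. Its share among GC-rich windows was not taken, so the 4.70% is no like baseline. The CArG box and the AP-1 site (TGANTCA) were in none of the 8 windows and in 1.47% and 6.75% of all. These are matches of letters in a short window, and sites farther than 250 bases before the start are not covered.

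Egr1, Nr4a1 and Klf4, the members seen higher in KO, were 1.49 to 1.79 times as high in KO as in WT animals on the scale of log2(signal + 16). The other 7 lay between 0.78 and 1.26 times, and their KO and WT lenses overlapped. No member probe set passed an adjusted p of 0.05 in limma over all 45037 probe sets (0 of 12, where 0.00666% of all probe sets passed), each with an adjusted p of 0.99988. An unadjusted p under 0.05 was found in limma for 3 of 12, those of Egr1, Nr4a1 and Klf4, and for 4.06% of all probe sets. That count was 0 without KO animal 1, 1 without WT animal 5 or KO animal 7, and 2 or 3 under the other alternatives fitted. The genes behind it changed. Without WT animal 6 they were Egr1, Klf4 and Fos (p 0.0157 in limma), while Nr4a1 had p 0.106. Without KO animal 4, Nr4a1 had p 0.085 in limma. After normalization every KO lens lay above every WT lens at 2 of 12 probe sets, those of Egr1 and Nr4a1, and at 2.56% of all, and none lay wholly below, as 2.76% of all did. These counts come from the comparison that led to the choice of members.

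Egr1, a zinc finger factor induced by most stimuli of the MAP kinase pathway, had signals of 2471 (1L), 2857 (1R), 1688 (4L) and 1936 (7L) in KO, and of 1468 (2L), 1063 (5L) and 1433 (6L) in WT lenses. All 4 KO lenses were above all 3 WT lenses, with both eyes of animal 1 on top, and the closest pair, 4L and 6L, was 0.24 apart after normalization on the log2 scale. The normalized log2 level was 11.03 ± 0.34 in KO against 10.36 ± 0.23 in WT (SD, n = 3), a difference of 0.67 (SE 0.24). It was 0.48 without KO animal 1 and 0.72 without WT animal 2, whose array had the lowest Gapdh ratio.

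Nr4a1, also known as Nur77, had signals of 226 (1L), 266 (1R), 281 (4L) and 253 (7L) in KO, and of 186 (2L), 138 (5L) and 89.1 (6L) in WT lenses. The 4 KO lenses lay close together, within 1.24-fold, and above all WT lenses, which spanned 2.09-fold. The normalized log2 level was 8.09 ± 0.14 in KO against 7.25 ± 0.45 in WT (SD, n = 3), a difference of 0.84 (SE 0.33). The WT lens 6L was the lowest of all, and without it the difference was 0.59.

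Klf4, a Krüppel-like factor, had signals at its brighter probe set of 1432 (1L), 1688 (1R), 1117 (4L) and 1513 (7L) in KO, and of 789 (2L), 908 (5L) and 1126 (6L) in WT lenses. The groups met at one edge, since 4L lay just under 6L. The normalized log2 level was 10.46 ± 0.24 in KO against 9.88 ± 0.32 in WT (SD, n = 3), a difference of 0.58 (SE 0.24). The other Klf4 probe set differed by 0.35 (SE 0.30), with signals of 196 to 250 in KO against 127 to 195 in WT lenses, so its lenses overlapped only after normalization.

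**Figure D1:**
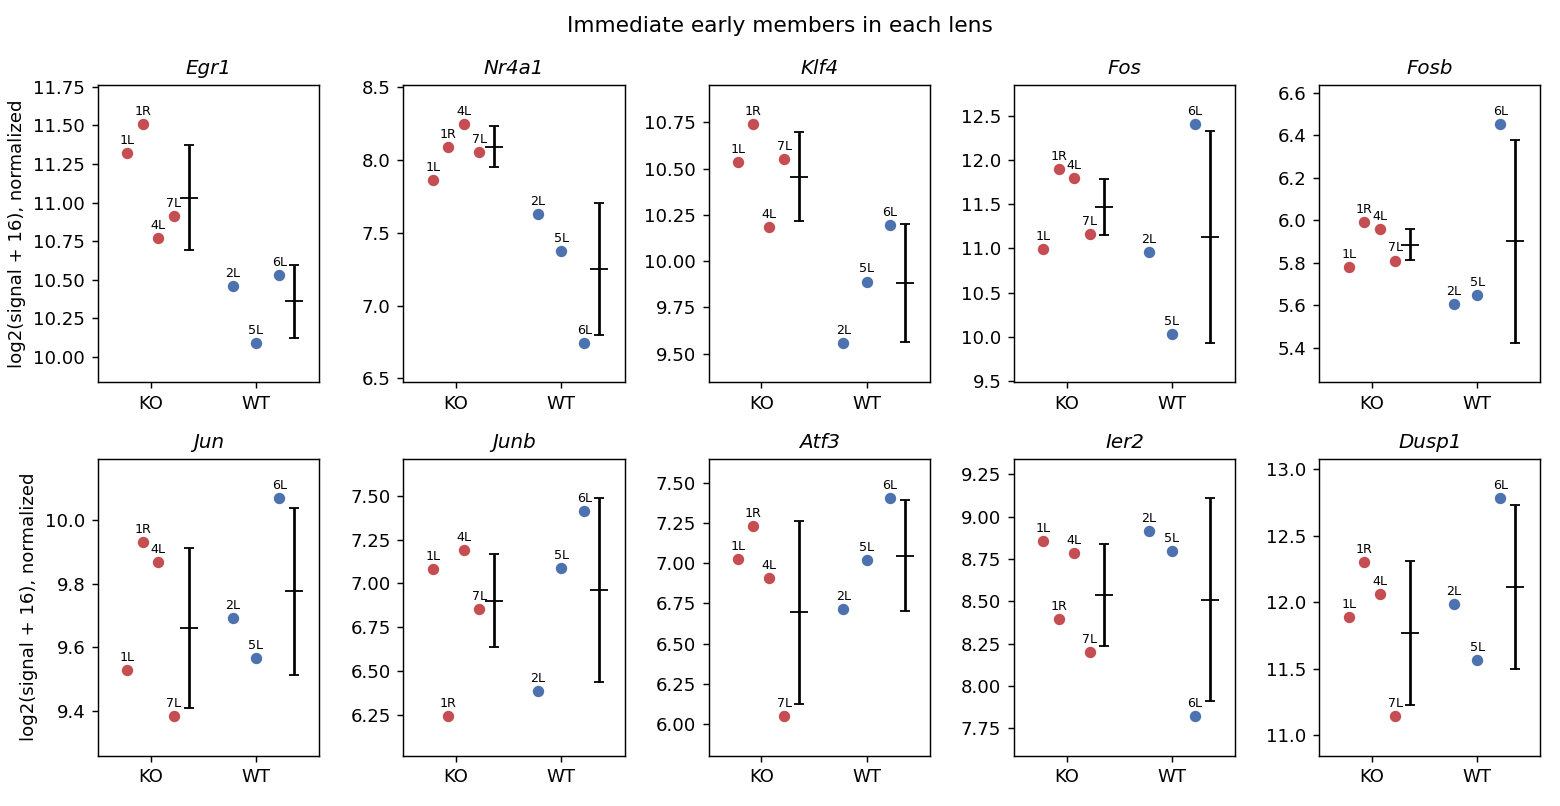
Normalized log2(signal + 16) of each member at its brightest probe set, 1 panel per gene, with a separate vertical scale in each. Red points are KO lenses and blue points WT lenses, labelled by animal and eye, and black bars give the mean and SD over 3 animals per group (1L and 1R averaged). KO and WT lenses are apart for Egr1 and Nr4a1, meet for Klf4 at 4L and 6L, and overlap for the other 7 members.

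The FOS family members had no such separation. Fos had signals of 1988 (1L), 3726 (1R), 3603 (4L) and 2312 (7L) in KO, and of 2029 (2L), 1011 (5L) and 5639 (6L) in WT lenses. The lowest and the highest lens were both WT, 5.57-fold apart, and the KO lenses lay between them. The normalized log2 level was 11.47 ± 0.32 in KO against 11.13 ± 1.20 in WT (SD, n = 3), a difference of 0.34 (SE 0.49). This difference was 0.97 without WT animal 6 and turned to -0.21 without WT animal 5. Fosb, which shares AP-1 partners with Fos, had signals of 40.2 (1L), 51.8 (1R), 46.8 (4L) and 41.0 (7L) in KO, and of 28.2 (2L), 33.2 (5L) and 70.8 (6L) in WT lenses. It was at or below the control level in 2 of 4 KO and 2 of 3 WT lenses, and it was the only member that did not lie above that level in all 7. The Fosb difference of -0.02 (SE 0.37) was 0.07 with the signals as deposited and 0.26 without WT animal 6, so its direction is not resolved.

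The JUN family members differed by little between the groups. Jun had signals at its brighter probe set of 724 (1L), 959 (1R), 888 (4L) and 663 (7L) in KO, and of 864 (2L), 724 (5L) and 1023 (6L) in WT lenses. Its highest lens was WT and its lowest KO, within 1.54-fold over all 7, and the difference was -0.11 (SE 0.24), or 0.03 without WT animal 6 and 0.02 without KO animal 7. The other Jun probe set differed by -0.12 (SE 0.32). Junb, which can take the place of Jun in AP-1 with weaker activity, had signals of 126 (1L), 64.4 (1R), 129 (4L) and 103 (7L) in KO, and of 62.2 (2L), 112 (5L) and 147 (6L) in WT lenses. Its lowest KO lens, 1R, and its lowest WT lens, 2L, were about as far down. The Junb difference was -0.06 (SE 0.39), and it was 0.06 with the signals as deposited and 0.16 without WT animal 6.

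Atf3, a bZIP factor of the ATF/CREB family induced by stress, had signals of 120 (1L), 143 (1R), 104 (4L) and 51.3 (7L) in KO, and of 84.4 (2L), 106 (5L) and 146 (6L) in WT lenses. The male KO lens 7L was the lowest, and the other 6 lenses overlapped. The difference of -0.35 (SE 0.41) was -0.03 without KO animal 7. Ier2, a nuclear protein of the early response, had signals of 455 (1L), 329 (1R), 415 (4L) and 282 (7L) in KO, and of 500.1 (2L), 410 (5L) and 198 (6L) in WT lenses. WT lenses held both its highest and its lowest value. The Ier2 difference was 0.03 (SE 0.34), or -0.05 with median centring and -0.32 without WT animal 6. Dusp1, the MAP kinase phosphatase, had signals of 3784 (1L), 4953 (1R), 4336 (4L) and 2278 (7L) in KO, and of 3925 (2L), 3065 (5L) and 7414 (6L) in WT lenses. Its highest lens was the WT lens 6L and its lowest the KO lens 7L. The Dusp1 difference of -0.35 (SE 0.35) was -0.01 without WT animal 6 and -0.03 without KO animal 7.

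Over the 10 members, 5 had a higher and 5 a lower mean in KO, where 48.4% of all probe sets were higher. The median log2 difference was 0.0048 over the members and -0.0118 over all probe sets. Leaving out 1 animal at a time moved the members' median between -0.076, without KO animal 4, and 0.21, without WT animal 6, with 4 to 7 members higher. With median centring Ier2 was on the lower side, and with the signals as deposited Fosb and Junb were on the higher side.

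**Figure D2:**
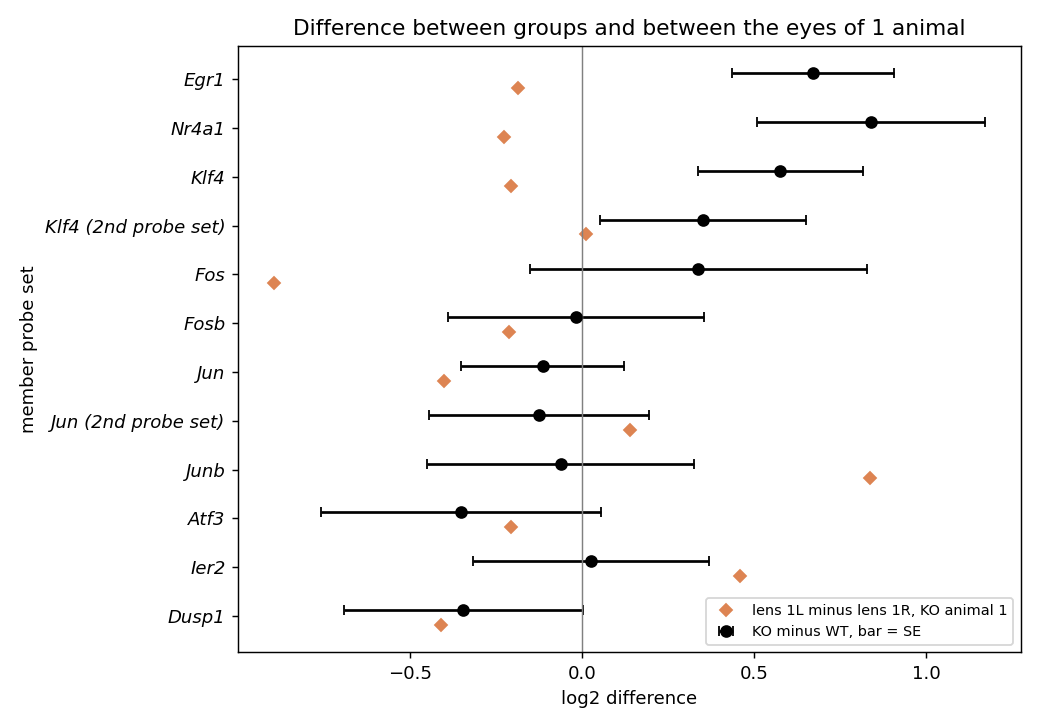
Log2 difference of KO minus WT at each of the 12 member probe sets (black points, bars are the SE from limma, n = 3 animals per group), and of lens 1L minus lens 1R of KO animal 1 (orange diamonds, 1 animal). Egr1, Nr4a1 and Klf4 lie at 0.58 to 0.84 at their brightest probe sets, and the eye difference of Fos (-0.90) and Junb (0.84) exceeds in size their difference between genotypes.

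The eyes of KO animal 1 were compared to see how far the members differ within a single animal. Between 1L and 1R the log2 difference was -0.19 for Egr1, -0.23 for Nr4a1 and -0.21 for Klf4, all lower in 1L. It was -0.90 for Fos, -0.41 for Dusp1 and -0.40 for Jun, again lower in 1L, while Junb (0.84) and Ier2 (0.46) were higher in 1L. The other probe sets gave 0.14 for Jun, higher in 1L, and 0.01 for Klf4. The difference between the eyes was larger in size than that between the genotypes for 6 of 10 members, Fos, Fosb, Jun, Junb, Ier2 and Dusp1. Over probe sets in general this was so for 72.2%. The median eye difference was 0.42 in size over the 22518 probe sets above the median level. The eye differences of Egr1, Nr4a1 and Klf4 were smaller than that median, and those of Fos and Junb were larger than for 84.0% and 81.3% of these probe sets.

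The spread between animals of a group set the members apart from each other. The pooled SD within groups was 0.88 for Fos, larger than for 97.6% of the probe sets above the median level, whose median was 0.35. It was 0.58 for Dusp1 (86.7%), 0.48 for Ier2 (74.9%) and 0.47 for Atf3 (74.2%). It was 0.42 for Junb (64.2%) and 0.26 for Jun (26.2%), and 0.34 for Fosb, whose level was not above the median. For Egr1 it was 0.29 (35.3%), for Nr4a1 0.34 (46.3%) and for Klf4 0.28 (32.7%). At these brightest probe sets Jun had a smaller spread than Egr1, Nr4a1 or Klf4. The pooled SD was 0.44 at the other Jun probe set and 0.21 at the other Klf4 probe set. The place of Jun among these genes therefore depended on the probe set. Genes picked for a difference between groups tend to have a low spread within them, so the values of Egr1, Nr4a1 and Klf4 are not independent of the choice.

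The members followed more than 1 order over the lenses. Fos, Fosb, Jun, Atf3 and Dusp1, 5 of 10, were highest in the WT lens 6L and next in the KO lens 1R. This order, at the brightest probe sets, was picked after the values were seen. It was found at 1.30% of the probe sets above the median level. The other Jun probe set was also highest in 6L, but 4L, 1L and 2L came before 1R. Junb was also highest in 6L, so 6 of 10 members had their top there. Of the probe sets above the median level, 14.6% had theirs there. In the same lens Nr4a1 and Ier2 were the lowest of all 7, at -0.97 and -0.72 from their own means, while Fos stood 1.08 above its mean and Dusp1 0.82. The lenses 6L and 1R also had the highest Gapdh 3'/5' ratios, 15.9 each. By the beta-actin ratio 6L was again highest (23.8), but 1R (15.1) was below 1L (19.1) and 5L (16.4). The part of RNA integrity in this order was not tested.

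**Figure D3:**
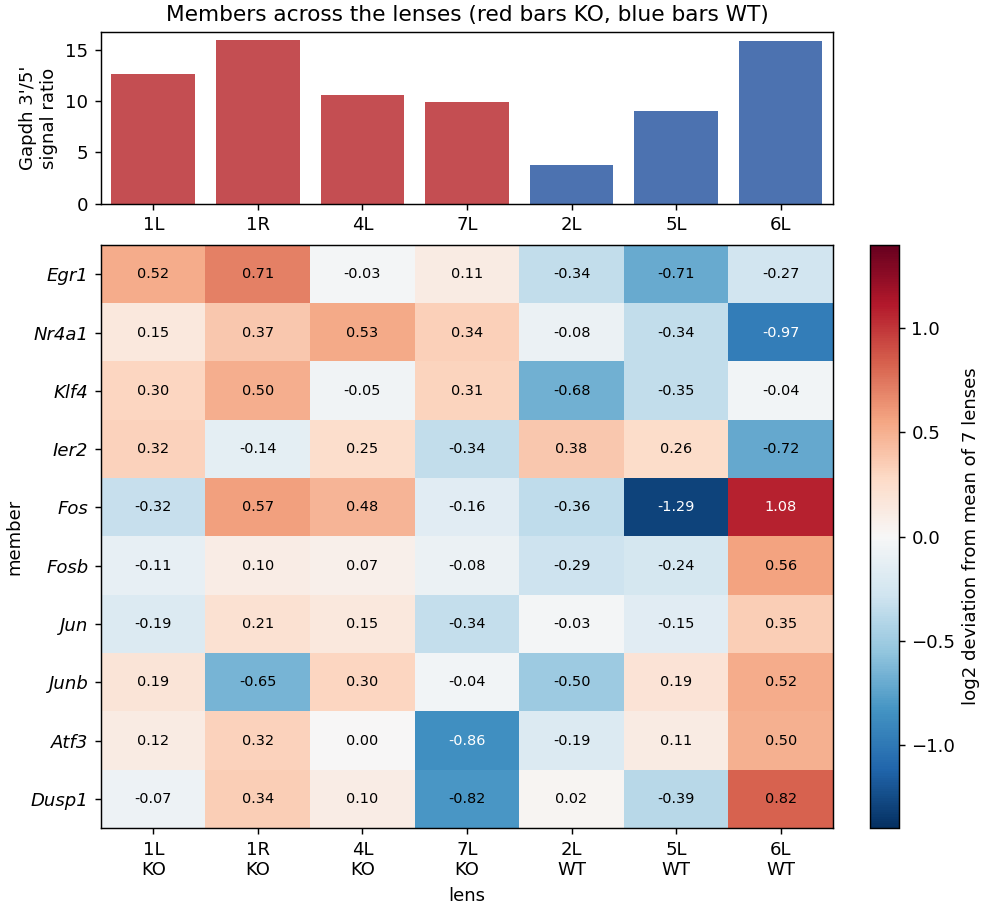
Top, the Gapdh 3'/5' signal ratio of each lens. Below, the log2 deviation of each member from its mean over the 7 lenses at its brightest probe set, red above and blue below. In 6L, Fos (1.08), Dusp1 (0.82) and 4 other members stand above their means, while Nr4a1 (-0.97) and Ier2 (-0.72) stand below theirs.

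By the root mean square of the difference between centred log2 values over 7 lenses, Egr1 and Klf4 were each other's nearest member (0.25). Both had been chosen for higher values in KO lenses, so some closeness follows from the choice. Of the probe sets above the median level, 0.409% were closer to Egr1 than Klf4 was, and 0.839% were closer to Klf4 than Egr1 was. Dusp1 and Atf3 were likewise nearest to each other (0.25, with 0.195% closer to Dusp1 and 0.791% closer to Atf3). So were Jun, taken only at its brighter probe set, and Fosb (0.17, with 0.768% and 0.622% closer). Fos was nearest to Dusp1 (0.50), with 0.813% closer. Nr4a1, Junb and Ier2 had no near member, with 8.53%, 19.2% and 33.1% of those probe sets closer than the nearest one. Among 19436 probe sets with 1 symbol above the median level, the 5 genes closest to Egr1 by this measure were Ptpro, a receptor-type tyrosine phosphatase (0.16), Arhgap26, a GTPase activating protein (0.17), Zfr, a zinc finger RNA-binding protein (0.17), Nr2f1, a nuclear receptor (0.18), and Etv3, an ETS factor (0.18). Their KO minus WT differences were 0.40 to 0.80, a direction set by their likeness to Egr1. With 7 arrays and this many probe sets, close patterns also occur with no relation between the genes.

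The EGR, NR4A and KLF relatives of Egr1, Nr4a1 and Klf4, named here after their values had been seen, had values on both sides of 0, each with lenses of the groups overlapping at its brightest probe set. Egr2 (-0.42, SE 0.38) was at or below the control level in all 4 KO lenses and 2 of 3 WT lenses, and its other probe set differed by 0.52. Egr4 (0.31, SE 0.36) was at or below that level in 3 of 4 KO lenses and all 3 WT lenses. Egr3 differed by -0.75 (SE 0.41), with signals of 27.3 to 52.8 in KO against 40.0 to 107 in WT lenses, so it lay the other way from Egr1 near background, and its other probe set differed by -0.01. Nr4a2 differed by 0.70 (SE 0.51) and Nr4a3 by 0.34 (SE 0.50), but other probe sets of Nr4a2 lay between -0.67 and 0.54 and those of Nr4a3 at -0.27 and -0.11. Klf2 differed by 0.25 (SE 0.35), Klf10 by -0.21 (SE 0.22) and Klf6 by 0.10 (SE 0.40), with other Klf6 probe sets between -0.30 and 0.61. None of these 8 genes had at its brightest probe set an unadjusted p under 0.05 in limma, and whether they differ from the members was not tested.

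The wider pathway was covered by 5 lists with 91 measured genes and 216 probe sets. No probe set passed the adjusted p of 0.05 in limma (0 of 216, smallest adjusted p 0.263, against 0.00666% of all), and 10 (4.63%) had an unadjusted p under 0.05, where 4.06% of all did. Of these 10, 8 were higher and 2 lower in KO. By mean, 52 of the 91 genes were higher and 39 lower.

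Of 19 other immediate early transcription factors, 13 were higher and 6 lower, with a median log2 difference of 0.11. Jund, the JUN family member that most cells express steadily, was at 12.01 ± 0.50 in KO and 11.51 ± 1.09 in WT (SD, n = 3). Fosl2, a FOS relative, differed by 0.11 (SE 0.21), and Bhlhe40, a repressor of the clock and of stress responses, by 0.44 (SE 0.27). The other Fosl2 probe set lay at -0.28. Fosl1, another FOS relative, was the one member of this list whose normalized lenses did not overlap, at -0.91 (SE 0.40), where 2.76% of all probe sets had every KO lens below. It had 3 of 4 KO lenses at or below the control level and WT signals of 45.8 to 71.5, so the size of that difference is not resolved.

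Of 29 other immediate early genes, 15 were higher and 14 lower (median 0.04). Ccn2, the connective tissue growth factor, differed by -0.12 (SE 0.29), Btg1, an antiproliferative gene, by 0.17 (SE 0.18), Mcl1, an antiapoptotic BCL2 relative, by 0.18 (SE 0.18), and Nfkbia, the inhibitor of NF-kB, by 0.50 (SE 0.31). Other probe sets lay at -0.24 and 0.04 for Btg1, between -0.18 and 0.28 for Mcl1 and between -0.16 and 0.31 for Nfkbia. Every KO lens lay above every WT lens for 2 of the 29, where 2.56% of all probe sets did. These were Socs3, the feedback inhibitor of STAT3 signalling, at 2.88 (SE 0.40), and Rgs2, a regulator of G protein signalling, at 0.59 (SE 0.24). The other Rgs2 probe sets lay between -0.47 and 0.59.

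Of 15 upstream kinases and factors measured, 10 were higher and 5 lower (median 0.07). Creb1 differed by 0.23 (SE 0.25), Mrtfb, a coactivator of the serum response factor, by 0.24 (SE 0.19), Mapk14, the p38 kinase, by 0.07 (SE 0.18), and Map2k2, a MAP kinase kinase, by -0.28 (SE 0.27). Other Creb1 probe sets lay between -0.69 and 0.08, and those of Mapk14 between -0.32 and 0.02. Lenses did not overlap for Rps6ka3, the RSK2 kinase (0.73, SE 0.25), which was higher in KO, nor for Map2k1 (-0.49, SE 0.26) and Rps6ka5, the MSK1 kinase (-0.51, SE 0.23), which were lower. Over all probe sets 2.56% lay wholly above and 2.76% wholly below in KO. The other 2 Rps6ka3 probe sets differed by -0.30 and 0.09, and those of Rps6ka5 by -0.48 and 0.63, so their probe sets disagreed. Srf itself differed by -0.12 (SE 0.25).

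Of 17 feedback phosphatases and inhibitors, 9 were higher and 8 lower (median 0.04), and none had lenses apart. Nab1, a corepressor of EGR proteins, differed by 0.04 (SE 0.26), Spry1 by -0.25 (SE 0.27), Spry2 by 0.60 (SE 0.26) and Spred1 by 0.39 (SE 0.32), the last 3 being inhibitors of receptor tyrosine kinase signalling. The other Spry2 probe set lay the other way (-0.52), and other Spred1 probe sets lay between -0.16 and 0.47. Of 11 AP-1 partners, bZIP factors that can pair with FOS or JUN or act beside them, 5 were higher and 6 lower (median -0.01). At their brightest probe sets Atf2 (-0.01, SE 0.20), Atf4 (0.10, SE 0.21), Jdp2 (0.03, SE 0.29) and Atf6 (-0.16, SE 0.23) all differed by less than their SE. Other probe sets lay between -0.56 and -0.02 for Atf2, 0.003 and 0.80 for Atf4 and -0.75 and 0.31 for Atf6. The other Jdp2 probe set lay at -0.36. The 2 partners with the largest differences at the brightest probe set, named after their values were seen, were Atf7 and Batf. Atf7 lay at -0.83 (SE 0.33, unadjusted p 0.0316 in limma), and its other probe set at -0.15. Batf lay at 0.62 (SE 0.39) and was at or below the control level in 2 of 4 KO and all 3 WT lenses.

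**Figure D4:**
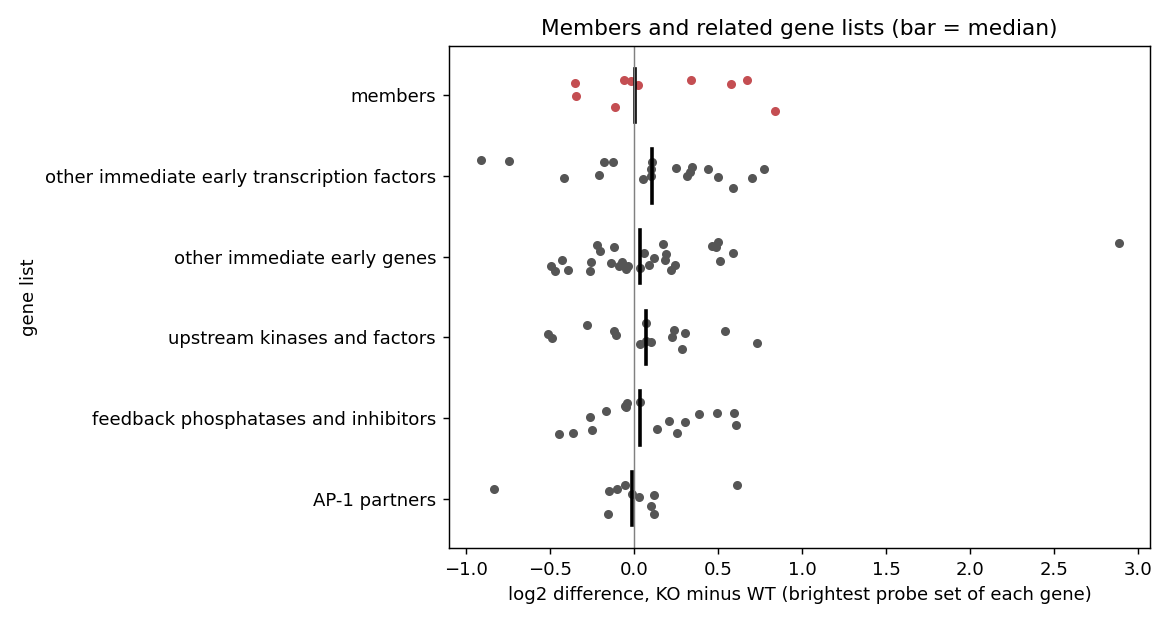
Log2 difference of KO minus WT for each gene at its brightest probe set, by list, with the median of each list as a black bar (vertical scatter within a list is only for legibility). The medians lie between -0.01 and 0.11, and the point at 2.88 is Socs3.

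Markers of some other cell types differed in mean between the genotypes. Of 11 macrophage genes 10 were higher in KO, with a summed signal of 1881 to 2880 in KO against 926 to 1708 in WT lenses, and Aif1 was at or below the control level in all 7. Of the 10, Cd68 (0.07, SE 0.36), Adgre1 (0.03, SE 0.33), Ptprc (0.29, SE 0.36) and Cd14 (0.50, SE 0.54) differed by less than their SE. Csf1r, the brightest, differed by 1.05 (SE 0.34), and its other probe sets by -0.33 and 0.39. Other probe sets lay between -0.93 and 1.51 for Laptm5 and at 0.89 and 1.76 for C1qb. Of 6 pigment cell genes 5 were higher (14269 to 42657 in KO, 7647 to 23658 in WT). Of 5 surface epithelium genes 4 were lower (6825 to 18858 and 11114 to 21057). The highest pigment sum and the lowest surface sum were both those of the KO lens 7L. Tyr had signals of 2686 in 7L, 529 to 758 in the other KO and 237 to 1053 in WT lenses. For Krt5 they were 93.7 in 7L, 872 to 1350 in the other KO and 1104 to 2054 in WT lenses. Rpe65, the pigment cell gene that was lower, had every KO lens below every WT lens (-1.13, SE 0.36), as 2.76% of all probe sets did. No probe set of these lists passed the adjusted p of 0.05 in limma, and 8 of 20 (6 higher, 2 lower), 2 of 10 (1 higher, 1 lower) and 2 of 8 (both lower) had an unadjusted p under 0.05, where 4.06% of all did. All 3 red cell genes were higher, with a summed signal of 64.8 to 348 in KO against 24.6 to 68.9 in WT lenses, and 2 of 5 probe sets had an unadjusted p under 0.05, both higher. Alas2, of heme synthesis, differed by 1.42 (SE 0.37) and Slc4a1, the red cell anion exchanger, by 1.48 (SE 0.60). Both were at or below the control level in all 3 WT lenses, and Hba-a1 was so in all 7. Among the 4 KO lenses, Alas2 was at or below that level in 1 and Slc4a1 in 2. The Slc4a1 signal reached 236 in 7L but no more than 87.6 in 1L, 1R or 4L. Its remaining probe sets differed by -0.21 and 0.29, so a rise of Slc4a1 in KO is not resolved. Of 8 retinal genes 4 were higher, and 3 of 11 probe sets had an unadjusted p under 0.05 in limma, all higher. The KO lenses lay above all WT lenses for Gfap, of glia (1.47, SE 0.33), and Rlbp1, a retinal binding protein (0.47, SE 0.20), and Glul, glutamine synthetase, differed by 0.69 (SE 0.29). The other Gfap probe sets differed by 0.33 and 0.91, and the other Glul probe set by 0.46. The photoreceptor genes Gnat1, Pde6b, Rcvrn and Nrl lay between -0.22 and -0.04, and Sag lay at 0.002. Of 6 lens fibre genes 5 were lower, and 1 of 7 probe sets had an unadjusted p under 0.05 in limma. This was Dnase2b (-0.83, SE 0.17, adjusted p 0.918 in limma), with signals of 1338 to 5671 in KO against 4835 to 5384 in WT lenses. Of 5 stroma genes 3 were lower, and 2 of 8 probe sets had such a p, both lower. No lens epithelium, endothelium or muscle probe set had one. In bulk samples fewer cells of a type and less RNA per cell cannot be told apart. The part of these cells in the levels of Egr1, Nr4a1 and Klf4 was not tested.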

How the data were processed

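The authors deposited 1 linear intensity value per probe set and array, from RNA amplified in 2 rounds per the labels' protocols. The sources used here do not name the summary software. Amplification favours the 3' end of transcripts, which lowers probe sets that lie away from it. Of 45101 probe sets, 64 controls were left out and 45037 kept with no filter. The scale was log2(signal + 16), which understates changes of weak probe sets, with quantile normalization between arrays, and lenses 1L and 1R were averaged. The genotypes were compared by limma 3.58.1 under R 4.3.3 (lmFit, then eBayes with a trend on level, two-sided), and p-values were adjusted by Benjamini and Hochberg's method across all 45037. The code was tested on simulated data. Animals were separate mice of 1 litter.

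Symbols were those of the platform's annotation, which gave 1 symbol for 34945 probe sets, several for 932 and none for 9160. Only those with 1 symbol were named. A gene was described by its brightest probe set. Of each pathway list the 4 brightest genes and those whose lenses did not overlap were named, with further genes marked as named after their values were seen or for their role (Srf). The members and lists were chosen with earlier results of these data known. Alternatives were each lens as a sample of its own, the left or right lens alone for KO animal 1, median centring, the deposited signals without further normalization, a filter on low values, eBayes without the trend, pseudocounts of 1 and 64, the mean over a gene's probe sets, and leaving out each animal.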

Additional observations from a re-analysis of the deposited data

How the results depend on the processing

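Egr1, Nr4a1, Klf4, Atf3 and Dusp1 kept their direction under every alternative run, and no member or pathway probe set passed the threshold under any of those fitted. Leaving out 1 animal at a time gave -0.21 to 0.97 for Fos, -0.17 to 0.26 for Fosb, -0.32 to 0.23 for Ier2, -0.22 to 0.031 for Jun, -0.35 to 0.16 for Junb, -0.076 to 0.21 for the members' median, -0.039 to 0.12 for that of the other immediate early genes, 0.012 to 0.13 for the median of the upstream list and -0.060 to 0.10 for that of the feedback list. Taking only lens 1L for KO animal 1 put Junb at 0.078. Taking only 1R put Fosb at 0.018, Ier2 at -0.050 and the upstream median at 0.12. Median centring gave -0.047 for Ier2, -0.020 for the upstream and -0.074 for the feedback median. The signals as deposited gave 0.075 for Fosb and 0.055 for Junb. The filter on low values gave -0.046 for the feedback median and dropped Fosb, and the mean of all probe sets gave -0.090 for the upstream median. The cause of these shifts was not tested. Of all probe sets with an unadjusted p under 0.05, 1011 were higher and 817 lower in KO, against 801 and 1092 with median centring, 1271 and 574 with the signals as deposited and 510 and 295 with the filter. No paired analysis was possible because KO and WT animals share no number. The number of arrays and, for Fosb, signal near background limit these values.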
